A study of Sus scrofa with 6 samples.

Results

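Some genes of cultured eye-surface keratinocytes showed a wide step between the values of some clones and those of the others. Such step-like genes were collected here from 6 clones of pig (Sus scrofa) keratinocytes. For each probe set the 6 log2 values were sorted. A probe set was kept if the largest step between neighbouring values exceeded 1, which is 2-fold, and was over 3 times the next largest step. The rule kept 238 of 23999 probe sets (0.992%), and 13 of these were left out by symbol (solute carriers, ribosomal proteins, proteases, collagens and some others), which left 225 (0.938%). Of the 225, 111 carried 1 gene symbol, 3 carried several and 111 were unnamed in the array's annotation table. The rule used all 6 values of every probe set, so the levels below are a description and carry no test. Steps were what the rule asked for, and where 1 clone stood apart that side is 1 array. Separate levels cannot be told from graded variation there.

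The study compared clones from the central cornea with clones from the conjunctiva, the neighbouring mucosa, with 3 clones of each and 1 array per clone. Biopsies came from white domestic pigs. The labels give a distance of 6 mm from the limbus in wording that may cover both tissues or cornea alone. The labels name 2 animals, AP1 and AP6, without assigning any clone to either. Each clone was founded by a single cell picked from culture, and its feeder layer was 3T3-J2, a line of mouse fibroblasts that were irradiated first. No treatment, strain, sex or age is given in the labels, and nothing says that the clones came from separate cultures beyond their own founder cell.

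A keratinocyte clone is the progeny of 1 founder cell, so a state that this cell passed on is shared by the whole colony, whereas a tissue biopsy averages many such cells. Clones are known to differ in growth capacity, from long-lived holoclones to paraclones that soon stop dividing and differentiate. An array of a colony reads the summed RNA. Fewer cells with a transcript and less transcript per cell cannot be told apart in it.

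The identity of the cultures was checked against markers. Of 25 keratinocyte markers 10 were measured, and their mean level was between 9.87 and 10.48 in each clone. Among the bright ones, the stress-response gene SFN was between 12.46 and 13.05 and the adhesion gene PERP between 12.99 and 13.50. Not all were bright: the lowest marker value of a clone ran from 4.40 in cornea 3, below its array median of 4.48, to 5.51 in cornea 2. The marker lists of leukocytes and endothelium and of melanocytes and nerve had mean levels of 4.17 to 4.27 and 4.28 to 4.51, near the array medians of 4.40 to 4.48. The fibroblast and muscle list lay between 5.54 and 5.97, highest in conjunctiva 2.

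In most of the step-like genes 1 clone stood apart. In 191 of the 225 probe sets (84.9%) a single clone stood apart from the other 5, high in 126 and low in 65. A pair of clones stood apart in 23, and 11 split the clones 3 against 3. Single clones were also the most frequent kind among all 504 probe sets with a step over 1, whatever the next step. Of those 504, 94 set a pair apart and 51 split the clones 3 against 3. Cornea 2 stood apart in 54 probe sets, cornea 1 in 52 and conjunctiva 2 in 47, against 19 for cornea 3, 12 for conjunctiva 3 and 7 for conjunctiva 1. The direction differed as well: cornea 1 was high in 47 of its 52 and conjunctiva 2 in 41 of its 47, whereas cornea 2 was low in 32 of its 54 and cornea 3 in 14 of its 19.

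**Figure D1:**
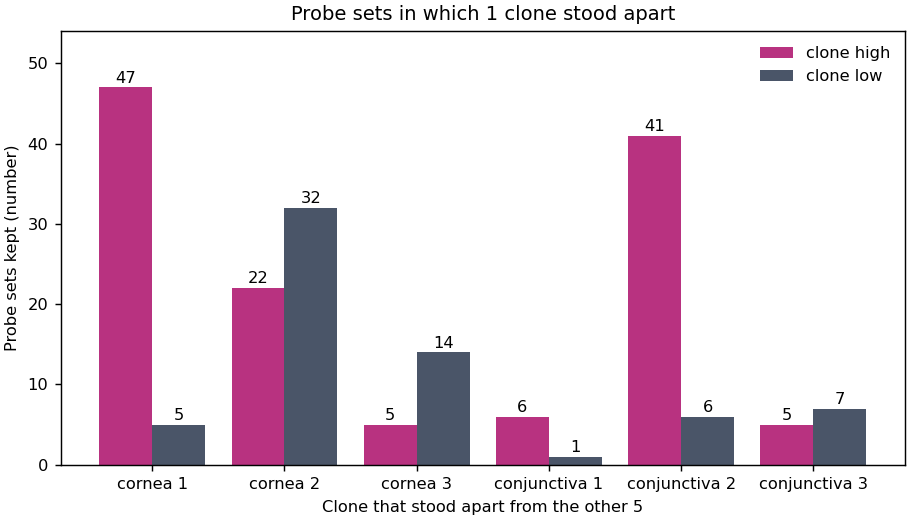
Number of kept probe sets (y axis) in which the clone on the x axis stood apart from the other 5, split into clone high and clone low. Cornea 1 (47 high) and conjunctiva 2 (41 high) have tall bars for high values, and cornea 2 (32) has the tallest bar for low values.

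The word "off" fits only part of these genes. The lower side lay below its array's median in every clone of that side for 80 probe sets (35.6%), above it in every clone for 116 (51.6%), and on both sides of it for 29. The array median is not a limit of detection, and no detection calls were analysed here. The steps ran from 1.00 to 6.31 with a median of 1.35 (log2), and 28 exceeded 2. Just inside the limit on the step lay TTC14 and PLK1 (1.003 and 1.005) and just outside it LOC100518827 and KPNA3 (0.997 and 0.984). Just inside the limit on the ratio lay CDC42EP3 and DHX9 (3.003 and 3.01) and just outside it APLP2 and NTPCR (2.99 and 2.99).

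**Figure D2:**
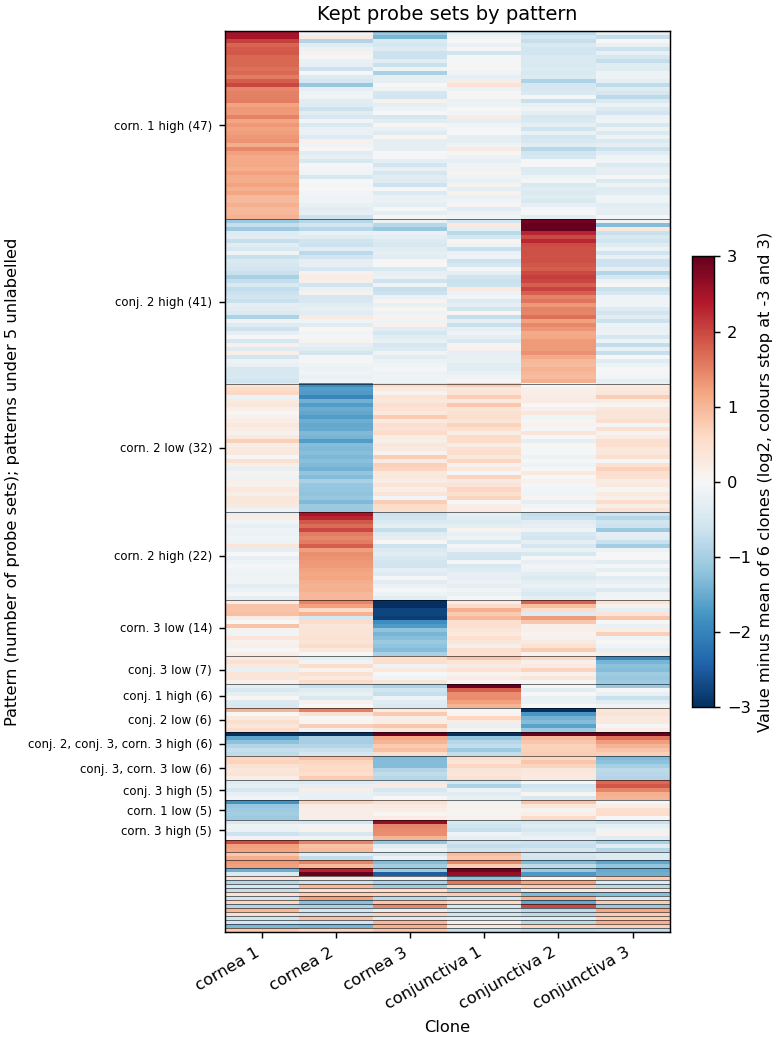
Each row is 1 of the 225 kept probe sets and each column a clone. Colour gives the log2 value minus the mean of the 6 clones, and black lines part the patterns. The single-clone blocks (47, 41, 32, 22 and 14 probe sets) fill most of the height, and the rows at the bottom hold the pairs and the 3 against 3 splits.

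Tissue was rarely the line of division. Only 1 of the 225, a probe set with no gene symbol, split the clones exactly by tissue, at 5.39, 5.23 and 5.40 in cornea and 3.92, 3.78 and 3.87 in conjunctiva. The rule used this contrast, so its limma adjusted p of 0.0695 is a description here (conjunctiva minus cornea -1.48, SE 0.10). With conjunctiva compared with cornea by limma over all probe sets, 0 of 23999 passed adjusted p 0.05 (0%), so 0 of the 225 did, with 648 and 7 at an unadjusted p under 0.05. With limma's trend and robust options 2 probe sets passed, the unnamed probe set above and FOLR1. FOLR1 also met the step rule and split the clones exactly by tissue, high in conjunctiva (step 1.93), but was left out by symbol. The tissues did not overlap in 20 of the 225 (8.89%), near the 7.28% of all probe sets. Among kept genes, the conjunctiva minus cornea difference was 1.59 (SE 0.48) for CRABP2 and 2.08 (SE 0.72) for PTHLH, both with a limma adjusted p of 0.9999.

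Another 3 against 3 split was more frequent than the tissue. In 8 of the 11 probe sets of this kind, cornea 1, cornea 2 and conjunctiva 1 lay on one side, and cornea 3, conjunctiva 2 and conjunctiva 3 on the other. Of the other 9 ways to split the clones, the tissue took 1, the split of cornea 1, cornea 3 and conjunctiva 3 against the rest took 2 and all others, including the split by fluidics station, took 0. Among all probe sets with a step over 1, whatever the next step, 51 split the clones 3 against 3 and 29 of these lay along the same line. The labels do not assign clones to the 2 animals, so whether the line follows them was not tested.

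The widest step of all followed this line. An unnamed probe set was at 10.55 in cornea 3, 9.68 in conjunctiva 2 and 10.31 in conjunctiva 3, and at 3.29, 3.11 and 3.38 in cornea 1, cornea 2 and conjunctiva 1. The step of 6.31 parts values far above the array medians from values below them. VDAC2, which encodes a channel of the outer mitochondrial membrane, was at 7.56, 7.46 and 7.80 on the high side (cornea 3, conjunctiva 2, conjunctiva 3) and at 5.89, 5.91 and 6.03 on the low side. Its 4 other probe sets differed by only 0.21, -0.04, -0.04 and 0.16 along the same line, so the step was seen in 1 probe set of 5. LOC100152209 was at 5.30, 5.13 and 5.28 against 3.74, 3.75 and 3.35, and its lower side lay below the array medians.

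The splicing regulator PTBP3 ran the other way along this line. It was at 8.44, 8.19 and 7.96 in cornea 1, cornea 2 and conjunctiva 1, and at 6.17, 6.45 and 6.02 in the others. Its second probe set, which the rule did not keep, differed by 1.55 in the same direction without overlap.

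Conjunctiva 2 stood high in 41 probe sets, of which 17 carried 1 symbol. SPP1, which encodes the secreted phosphoprotein osteopontin, was at 7.60 in this clone and at 3.59, 3.84, 4.52, 4.14 and 4.56 in cornea 1 to 3, conjunctiva 1 and conjunctiva 3, an 11.1-fold difference from their mean. MUC4, a membrane mucin of wet epithelia, was at 5.29 here and between 2.93 and 3.44 elsewhere. FOXA2, a pioneer transcription factor of endodermal and glandular epithelia, was at 5.43 against 2.83 to 3.35. The rule requires that conjunctiva 2 stand clear in all 3, and the other 5 clones were spread most widely for SPP1.

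CYP26A1, the enzyme that breaks down retinoic acid, was at 7.02 in conjunctiva 2 and between 3.93 and 4.55 in the other clones, and the secreted FAM3D was at 7.21, with a step of 2.21 to the next clone. Of 18 measured genes on a list of simple and secretory epithelium, 15 were measured by a probe set that the rule did not keep. In these 15 conjunctiva 2 was the highest clone in 8 and over 1 above the mean of the rest in 4, against 17.1% and 1.18% of all probe sets, with a median difference of 0.40. The 4 were the keratins KRT19 (2.01) and KRT18 (1.495), the transcription factor ELF3 (1.72) and WFDC2 (1.41), named after their values were seen. FOXA2 counted among the 15 by its brighter probe set, which differed by 0.23. Of 24 fibroblast and muscle markers that were not kept, conjunctiva 2 was over 1 above the rest in 4 as well, DCN, FN1, TAGLN and THY1 (2.15, 3.16, 1.23 and 1.70), with a median difference of -0.08 over the 24. The part of these markers in the conjunctiva 2 steps was not tested.

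The relative of FOXA2, FOXA1, did not follow it. FOXA1 was at 6.18 in conjunctiva 2 and also at 5.66 in cornea 3, and between 3.10 and 3.74 in the other 4, so these high clones came from different tissues. CRABP2, which carries retinoic acid within the cell, was at 11.88 and 11.48 in conjunctiva 1 and conjunctiva 2 and between 9.38 and 9.88 in the rest, where it was still among the brighter values.

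Of 21 measured genes of an interferon response list 3 were kept, all high in conjunctiva 2 (3 of 42 probe sets, 7.14%, beside 0.938% of all). The ubiquitin-like modifier ISG15 was at 9.79 and between 7.07 and 7.75 in the others, the antiviral GTPase MX1 at 6.95 against 4.45 to 5.09, and USP18, the protease that removes ISG15, at 6.73 against 4.70 to 5.57. Of the other 18, conjunctiva 2 was the highest clone in 7 and over 1 above the mean of the rest in 4, against 17.1% and 1.18% of all probe sets. The median difference over the 18 was 0.14, so most of them were nearly level. A raised mean of such genes in this clone was already known when the list was written.

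Conjunctiva 2 was low for few genes, 6 probe sets. PTGS2, the inducible cyclooxygenase of prostaglandin synthesis, was at 5.21 and at 9.37, 9.86, 8.60, 8.37 and 8.68 in cornea 1 to 3, conjunctiva 1 and conjunctiva 3, a 13.6-fold difference from their mean. UGP2, which makes UDP-glucose, was at 6.84 against 8.29 to 8.91, and the quinone reductase CRYZ at 5.37 against 6.76 to 7.22. All 3 kept values above the array medians on the low side. EF1ALPHA, a translation elongation factor, was at 10.15 against 11.50 to 12.55 in a probe set whose name marks it as one that can pick up related sequences, and its 6 other probe sets differed by -0.25 to 0.10.

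**Figure D3:**
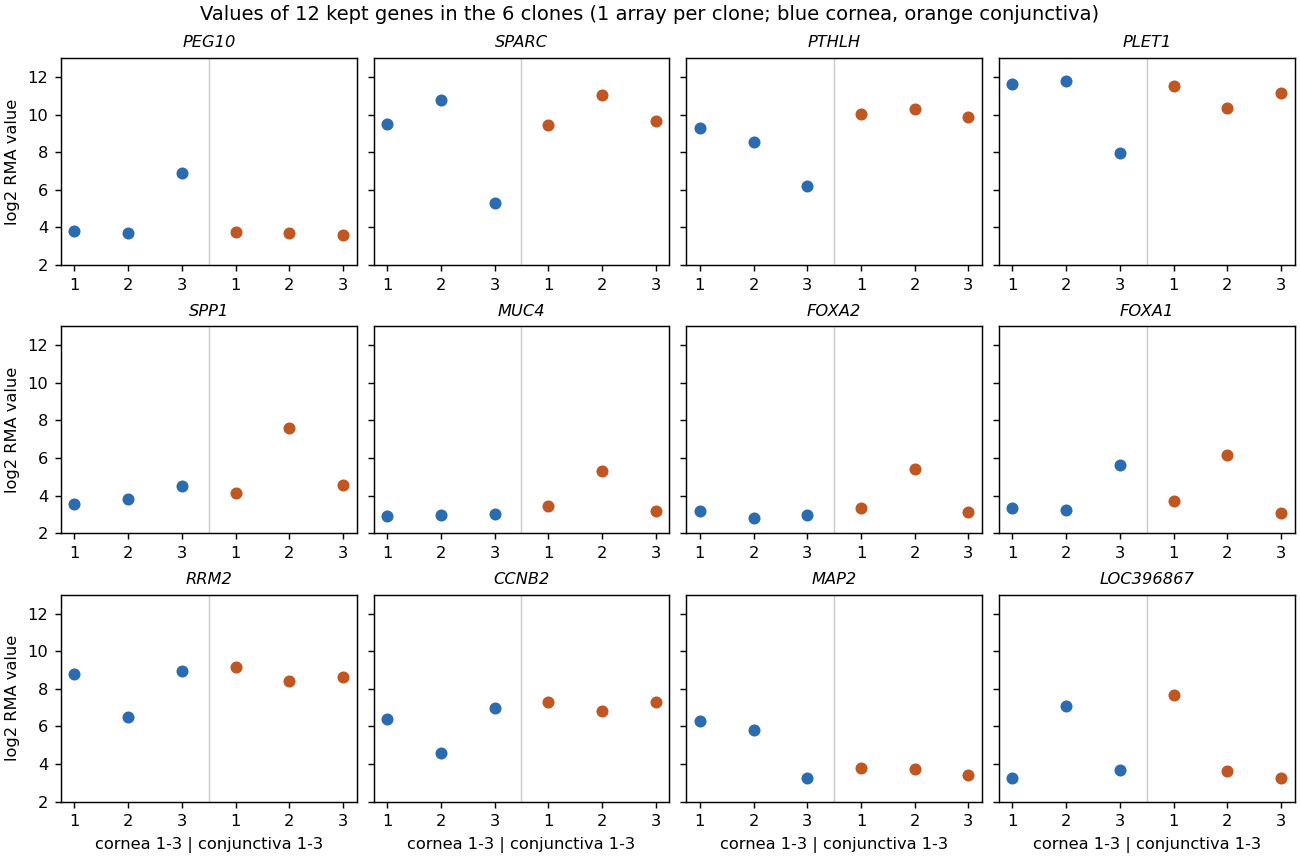
Log2 RMA values (y axis) of 12 kept genes in cornea clones 1 to 3 (blue) and conjunctiva clones 1 to 3 (orange), 1 array per clone. PEG10 is high only in cornea 3 and SPP1, MUC4 and FOXA2 only in conjunctiva 2, whereas SPARC, PTHLH and PLET1 are low in cornea 3 and RRM2 and CCNB2 in cornea 2.

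Of the 32 probe sets in which cornea 2 stood low, 14 carried 1 symbol, and 7 of these genes were on a list of cell cycle genes. RRM2, the subunit of ribonucleotide reductase that limits the supply of deoxynucleotides, was at 6.52 in this clone and at 8.79, 8.97, 9.15, 8.41 and 8.65 in cornea 1, cornea 3 and conjunctiva 1 to 3. CCNB2, a mitotic cyclin, was at 4.59 against 6.37, 6.96, 7.28, 6.80 and 7.29 in the same order. PCNA, the sliding clamp of DNA polymerase, was at 6.10 against 7.60 to 8.30. That cornea 2 lay below all other clones in each was set by the rule, and the other 5 clones spread over less than 1.

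The S-phase and mitotic cyclin CCNA2 was at 3.85 in cornea 2 against 5.05 to 5.92, CDCA3 at 4.76 against 6.39 to 6.66, and the mitotic kinase PLK1 at 5.50 against 6.51 to 7.12. Of 28 measured genes of a cell cycle list, 7 were kept, all in this pattern. Of the other 21, cornea 2 was the lowest clone in 16 and over 1 below the mean of the rest in 8, against 18.5% and 0.671% of all probe sets, with a median difference of -0.75. That cornea 2 is low for cell cycle genes was known when the list was written. In 23 of the 32 probe sets of the pattern the value in cornea 2 stayed above its array median.

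**Figure D4:**
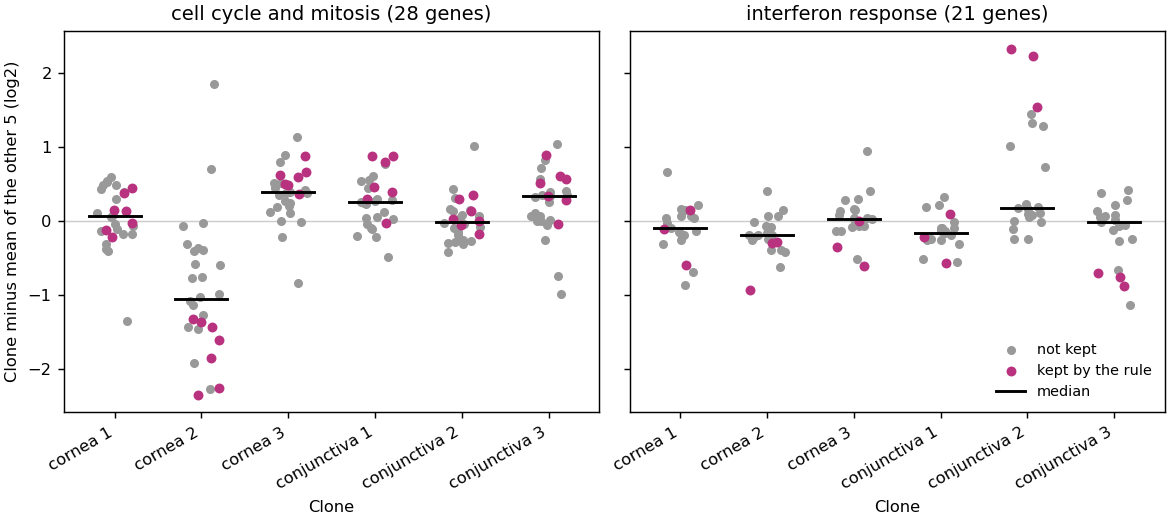
Difference between each clone and the mean of the other 5 (y axis, log2) for genes of the cell cycle list (left) and the interferon list (right), 1 point a gene, with kept genes in colour and a bar at the median. The cell cycle median is -1.06 in cornea 2, and in conjunctiva 2 the interferon median is 0.18, with 7 genes above 1.

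Cornea 2 was also high in 22 probe sets, of which 8 carried 1 symbol. CFD, a serine protease of the alternative complement pathway, was at 7.30 against 4.97 to 5.38 in the other clones. AQP5, a water channel of corneal and glandular epithelium, was at 7.54 against 5.52 to 5.98. The ectopeptidase ANPEP was at 6.79 against 4.58 to 5.32 and DGAT2, which completes triglyceride synthesis, at 6.00 against 4.42 to 4.70. Cornea 2 lay clear of the other clones in each of the 4 genes, as the rule requires, and those clones were spread most widely for ANPEP.

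Cornea 3 was marked by genes that were bright elsewhere and low here. SPARC, a secreted glycoprotein that binds collagen, was at 5.31 in cornea 3 and at 9.49, 10.75, 9.45, 11.02 and 9.67 in cornea 1, cornea 2 and conjunctiva 1 to 3, a 27.3-fold difference from their mean. PTHLH, a parathyroid hormone-like peptide secreted by keratinocytes, was at 6.21 against 9.27, 8.52, 10.04, 10.32 and 9.87 in the same order. PLET1, a surface protein of some epithelial progenitors, was at 7.98 against 10.35 to 11.76, and the death receptor TNFRSF21 at 8.82 against 10.11 to 10.92. No value in cornea 3 reached the range of the others, as the rule requires, and even there all 4 lay above the array median. An unnamed probe set of the same pattern was at 8.85 in cornea 3 against 12.65 to 13.74, a step of 3.80.

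The second probe sets of SPARC and PLET1 were dim in every clone, at most 5.95 and 5.20, and cornea 3 was 0.38 and 0.50 higher than the rest in them. For INPP5F, which encodes an inositol phosphatase and was at 5.81 against 6.82 to 7.87, the second probe set differed by -1.69, without overlap. Of 10 keratinocyte markers measured, 6 were lowest in cornea 3 (14.8% of all probe sets were), among them the junction gene JUP at 7.47 against 7.59 to 8.80, while EPCAM was highest there at 9.61. In cornea 3, 0 of the 10 lay over 1 below the mean of the other clones, with a median difference of -0.54. The part of these marker levels in the steps of cornea 3 was not tested.

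In the other direction, PEG10, an imprinted gene that derives from a retrotransposon, was at 6.87 in cornea 3 and at 3.82, 3.72, 3.77, 3.72 and 3.59 in cornea 1, cornea 2 and conjunctiva 1 to 3. The other 5 values lay close together (SD 0.084), and the step was 23.5 times the next. The 2 other probe sets of PEG10 lay below the array medians in every clone, at most 3.29 and 3.44, so they bear little on the step. TCF21, a transcription factor of mesenchymal cells, was at 5.05 against 3.03 to 3.78, and MPC1, which encodes a mitochondrial pyruvate carrier, at 4.53 against 3.18 to 3.43.

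Cornea 3 shared a smaller set of steps with conjunctiva 3. Both were low in 6 probe sets, the most frequent pattern of a pair, and both were high in 1. RNASE4, a secreted ribonuclease, was at 5.11 and 5.41 in these clones and between 6.87 and 7.08 in the other 4. The motor protein MYO5B of apical membrane transport was at 8.18 and 8.28 against 9.40 to 9.67, HEBP2 at 7.96 and 7.90 against 9.02 to 9.22, and the polarity gene LRRC1 at 5.18 and 5.15 against 6.22 to 6.80. The second LRRC1 probe set differed by -0.75 in the same clones, without overlap. CTNNAL1, a catenin relative, was high at 5.50 and 5.60 against 3.74 to 4.37.

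Clones that carry the same number in both tissues made up 12 of the 23 pairs, clones of 1 tissue 6 and the remaining kinds of pair 5. The same-number pairs held 7 (clones 3), 3 (clones 1) and 2 (clones 2), and cornea 1 with cornea 2 held 4. Among all 94 probe sets with a step over 1 that set a pair apart, whatever the next step, these pairs held 23, 6, 8 and 21. Of the 15 possible pairs 3 share a number and 6 a tissue. RLN2, the peptide hormone relaxin, was at 3.75 and 3.47 in clones 2 of cornea and conjunctiva and between 5.60 and 5.80 in the rest, a tight pair of levels. LNPK, which shapes the endoplasmic reticulum, was at 5.36 and 5.48 in clones 1 against 4.06 to 4.24. The labels do not say what a shared number means.

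Within cornea, clones 1 and 2 were high together in 3 probe sets, all named. MAP2, a microtubule protein best known from neurons, was at 6.28 and 5.82 in these clones and at 3.24, 3.80, 3.74 and 3.40 in cornea 3 and conjunctiva 1 to 3. Its second probe set differed by 2.34 against 2.51 in the first, at 8.11 and 7.69 in these clones, but the rest were not level in it, with cornea 3 at 3.87 and conjunctiva 1 to 3 at 6.39, 6.12 and 5.87. The nuclear receptor RORA was at 5.95 and 5.72 against 3.91 to 4.62, and RNASET2, a lysosomal ribonuclease, at 6.30 and 5.93 against 4.37 to 4.76. ICAM2, an adhesion molecule, was low in conjunctiva 2 and conjunctiva 3 at 4.19 and 4.24 against 5.93 to 6.30.

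The largest step between a pair and the rest belonged to LOC396867, at 7.07 in cornea 2 and 7.67 in conjunctiva 1 and at 3.28, 3.67, 3.65 and 3.25 in cornea 1, cornea 3, conjunctiva 2 and conjunctiva 3. Its step of 3.40 joined clones of different tissue and number. The low side was below the array medians in all 4 clones.

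Conjunctiva 3 was low in 7 probe sets, of which 6 carried 1 symbol. HSD11B1, which regenerates active glucocorticoid, was at 6.74 against 8.37 to 9.50, the tight junction gene CLDN7 at 5.48 against 6.77 to 7.42, and the scaffold gene SDCBP2 at 6.75 against 7.83 to 8.73. PGLYRP2, which cleaves bacterial peptidoglycan, was at 4.12 against 5.18 to 5.68. Conjunctiva 3 was high for CXCL2, a neutrophil chemokine, at 6.36 against 3.55 to 4.74, and for CSTF3, an RNA cleavage factor, at 8.06 against 6.54 to 7.05. In conjunctiva 1 the smooth muscle actin ACTG2 was at 7.05 against 4.98 to 5.68 and the transcription cofactor CREBZF at 5.76 against 3.67 to 4.38. The other ACTG2 probe set was highest in conjunctiva 2 (5.33), with conjunctiva 1 at 4.83. For CREBZF the other probe sets differed by -0.11, 0.79 and 1.22 between conjunctiva 1 and the rest.

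Cornea 1 was high in 47 probe sets, of which 28 carried 1 symbol, more than in any other pattern. DSP and CDH1 were the kept genes of the keratinocyte marker list. One of the 2 probe sets of DSP, the desmosome protein desmoplakin, was at 7.09 in cornea 1 and at 4.48, 3.49, 4.33, 3.82 and 4.36 in cornea 2, cornea 3 and conjunctiva 1 to 3. SF3B1, a core splicing factor, was at 8.97 against 6.06 to 6.92, and CDH1, which encodes E-cadherin, at 9.27 against 6.97 to 7.80. DST, a linker of hemidesmosomes to the cytoskeleton, was at 5.70 against 3.31 to 3.94, and the RNA helicase DHX9 at 7.38 against 4.24 to 5.82. Cornea 1 was clear of the others in each, as the rule requires.

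CCL27, a chemokine of skin keratinocytes that attracts T cells, was at 8.93 in cornea 1 against 5.10 to 6.73. MYO1E, a membrane-linked myosin, was at 5.26 against 3.78 to 4.04 and the mitotic spindle gene HMMR at 4.80 against 3.12 to 3.79. Of the 5 probe sets in which cornea 1 was low, 1 had a symbol, the transcription factor BCL11A, at 4.76 against 5.91 to 6.32.

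The steps of cornea 1 were mostly not repeated by other probe sets of the same gene. The second probe sets of DSP, SF3B1 and CDH1 were brighter. That of DSP lay between 11.61 and 12.50 in the 6 clones, so DSP was not off in the clones where the kept probe set was low. These second probe sets differed by 0.49, 0.28 and 0.54 between cornea 1 and the rest, where the kept ones differed by 2.99, 2.45 and 1.81, and those of DST by -0.11 and 0.16. Over the pattern, 34 other probe sets of 22 genes had the sign of the kept one in 23 cases, with a median difference of 0.15 against 1.47 in the kept ones. Cornea 1 was the highest clone in 13 of the 34, against 15.4% of all probe sets. The difference exceeded 1 in 1 of them, for the protocadherin PCDH7 (1.74), a gene picked out after its value was seen.

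The control probe sets moved with this clone. The 3' minus 5' signal of actin, which is small where labelled RNA reaches the 5' end, was 0.46 in cornea 1 and 0.55 to 1.11 in the others, and that of GAPDH -0.13 against 0.23 to 0.42. Cornea 1 had the smallest value of both. Its part in the cornea 1 pattern was not tested.

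For the genes high in conjunctiva 2, all 10 other probe sets of 5 genes had the same sign as the kept one, conjunctiva 2 was the highest clone in 9 (17.1% of all probe sets), and 5 differed by over 1, with a median of 0.82 against 1.53 in the kept ones. The 5 belonged to C17H8orf4 (3.33), the receptor gene GPRC5A (1.98), PMEPA1 (1.39) and the lysosomal gene CLN6 (1.37 and 1.05), named after their values were seen. The second FOXA2 probe set differed by 0.23. For the genes low in conjunctiva 2, 7 other probe sets of UGP2 and EF1ALPHA were measured, all but 1 of them of EF1ALPHA. Of the 7, 4 had the same sign and 0 differed by over 1. Conjunctiva 2 was the lowest clone in 2 (15.9% of all probe sets). The UGP2 one differed by -0.84, at 9.31 in conjunctiva 2 against 10.09 to 10.25. Over all patterns 58 of 80 other probe sets (72.5%) had the sign of the kept one, and 10 differed by over 1 in that direction. Probe sets of 1 gene share their RNA and often their transcript, so these counts are no replication, and the difference between the patterns of high genes in cornea 1 and conjunctiva 2 was not tested.

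**Figure D5:**
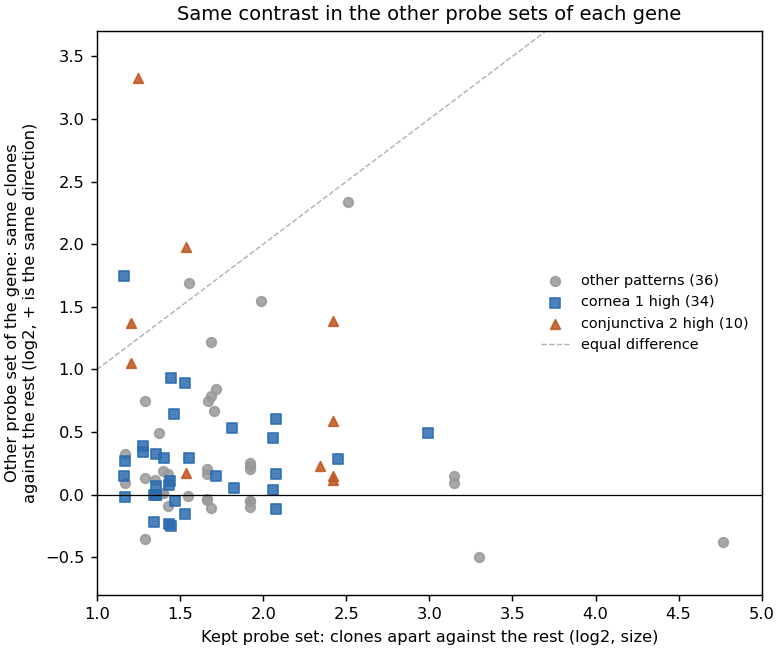
Each point is a probe set of a kept gene that the rule did not keep. The x axis gives the size of the difference between the clones apart and the rest in the kept probe set (log2), and the y axis the same contrast in the other probe set, positive in the same direction. The 34 points of genes high in cornea 1 lie all but 1 below 1, and the 10 of genes high in conjunctiva 2 all lie above 0. The 7 of genes low in conjunctiva 2 are drawn with the other patterns, and 3 of them lie below 0.

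Of the 111 genes, 110 were matched in the RefSeq gene table of Sscrofa11.1, and 1 pair, MYO1E and CCNB2, were direct neighbours, with different patterns (cornea 1 high and cornea 2 low). Within 5 genes of each other lay 4 pairs, none with the same pattern.

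Among lists of known genes, the mucosal surface and secretory list held 4 kept of 24 probe sets (16.7%), the cell cycle list 7 of 39 (17.9%) and the chemokine and defence list 4 of 47 (8.51%), beside 0.938% of all. These lists were written with earlier results of these data known, so the shares are a description. Of the mucosal genes, MUC4 and FOXA2 were high in conjunctiva 2, AQP5 in cornea 2 and FOXA1 in conjunctiva 2 and cornea 3. The keratinocyte marker list held 2 of 13 (15.4%), DSP and CDH1. The lists of leukocyte and endothelial and of melanocyte and neural markers held 0 of 37 and 0 of 30, and the fibroblast list 1 of 45, which was SPARC. Of the imprinted list 2 of 45 were kept, PEG10 and INPP5F.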

How the data were processed

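Biotin-labelled RNA of 6 clones was hybridised to Affymetrix porcine arrays. The authors deposited log2 values made with RMA, per the submitters' processing notes. RMA as a method corrects background, equalises the arrays' distributions and sums probes to 1 value per probe set; its version is not given in the sources used here. The arrays' run files (other settings, not measurements, deposited per array) gave the fluidics station and also carry a project name of an irradiation time course that the labels lack; groups follow the labels. With 6 arrays, precision is limited by their number.

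Control probe sets (124) were not ranked. Of the 23999 others, 10069 had 1 symbol in the annotation table, 198 several and 13732 none; a row with several was dropped if any symbol was on the rule's list. The step rule was run in Python 3.11.15, and the conjunctiva minus cornea fit in limma 3.58.1 (R 4.3.3; lmFit and eBayes, two-sided, Benjamini-Hochberg over all probe sets). Both were tested on simulated data. With single clones apart, exact permutation tests cannot reach 0.05. The p-values measure only the spread between these samples, which may be technical.

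Named genes were up to 4 per pattern and per list by step size, those near the limits, and neighbours. Members, lists and rules were chosen with earlier results of these data known. A list gene was represented by its probe set with the highest mean. Clones with the same number deviated together from their tissue's mean (r = 0.354, 0.169 and 0.349 over all probe sets, each over 0.1), so the clone number was also fitted as a block. Cornea 2 with conjunctiva 1, of different number, was over 0.1 too (r = 0.110), and the remaining pairs across the tissues ran from -0.382 to 0.020. Alternatives changed the limits of the rule, the scaling, the filters, the clones and the fit. Sequences were not used here.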

Additional observations from a re-analysis of the deposited data

How the results depend on the processing

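The number of kept probe sets followed the limits of the rule: 430, 86 and 28 with a least step of 0.75, 1.5 and 2, and 103 with a ratio of 5. It was 111 with single-symbol probe sets only and 79 with 1 probe set per gene, where fewer probe sets were tested. After array median centring 209 of the 225 remained among 220. Without 1 clone the count ran from 219 to 297. The share with 1 clone apart was 78.3% with a ratio of 2, and ran from 77.4% (without conjunctiva 2) to 89.1% without 1 clone. The share of 3 against 3 probe sets on the most frequent split was 100% with a least step of 1.5 (5 of 5) or 2 (2 of 2), with single-symbol probe sets (3 of 3) and with 1 probe set per gene (1 of 1), each from few. Of other probe sets of the same gene 79.5% had the same sign when dim ones were left out.

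The limma count was 0 with the clone number as a replicate block (0 of the 225), and this block changed no call. With it 33 of the 225 had an unadjusted limma p under 0.05, against 7 without it. The count over all 23999 probe sets rose as well, from 648 to 1204. The trend and robust options gave 2 probe sets, 1 of them kept. Without 1 clone the count was 0 to 0. The differences of 66 named genes, recomputed 479 times in all, kept their direction, which the rule's step over 1 had fixed in advance. That they did so is therefore no support. In size, 7 of the 479 moved by over the spread of the other clones, none by over 1.5 times. The list medians of cornea 2 and conjunctiva 2 without 1 of the other clones, added after the data had been seen, ran from -1.11 to -1.01 and from 0.15 to 0.21.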

Other observations

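Genes of squamous differentiation, which build the outer layers of stratified epithelia, were not among the named step-like genes. Of 38 listed, 8 were measured and 0 kept, which at 0.938% of all probe sets is no result about the group. In cornea 2, 4 of the 8 lay over 1 above the mean of the other clones (1.18% of all probe sets), and in conjunctiva 2, 5 lay over 1 below it (0.504%). The median difference of the list from the other clones was 1.10 in cornea 2 and -1.26 in conjunctiva 2.

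Of 79 patterning transcription factors on a list 21 were measured, by 34 probe sets, and RORA was the 1 kept (2.94%, beside 0.938% of all). The glutathione, drug and aldehyde metabolism list had 2 kept of 32 probe sets (6.25%), CYP26A1 and CRABP2. GSTA1, also on that list, met the step rule with a step of 4.43, high in cornea 1, cornea 2 and conjunctiva 1, but was left out by symbol. The list of secreted signals had 1 of 59 (1.69%), PTHLH, near the 0.938% of all. Of the sex-linked list 3 genes were measured and 0 kept.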
